A study of Mus musculus with 4 samples.

Results

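The genes described here belong to the pathway of leukaemia inhibitory factor (LIF) and gp130 in sorted cells derived from mouse ES cells. They were chosen by name, as every probe set assigned to Lif, Lifr, Il6st, Il6, Il6ra, Il11ra1, Osmr, Stat3, Socs3 or Jak1. Of these 10 genes, 9 are assigned probe sets in the annotation used, with 25 among the 45037 of the array, and Il11ra1 was not analysed here. KSP-positive cells, which bound an antibody against kidney specific protein, a cadherin of kidney epithelium, were set against KSP-negative cells, with 2 arrays of each from 2 independent experiments. All cells came from CAG-GFP EB3, a single mouse ES cell line of 129/Ola origin in which a CAG promoter drives GFP throughout, and all had been differentiated for 18 days through embryoid bodies with Activin at 10 ng/mL. Cells of both fractions were GFP-positive and excluded propidium iodide, and they had been treated with an antibody against the Fc receptors CD16 and CD32 before staining.

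LIF, IL6, oncostatin M and their relatives are cytokines that signal through a shared receptor chain, gp130, which Il6st encodes. LIF first binds its own receptor, encoded by Lifr, IL6 binds the chain encoded by Il6ra, and oncostatin M can pair gp130 with the chain encoded by Osmr. The kinase JAK1 on these chains phosphorylates the transcription factor STAT3, which induces Socs3, an inhibitor that binds gp130 and shuts the signal off. In mouse ES cells the LIF signal sustains self-renewal, and in fibroblasts and macrophages the same chains serve inflammatory signalling.

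Among the members, Il6 and Osmr rose in KSP-positive cells, and none fell. Il6 was 8.46-fold higher and Osmr 3.65-fold higher, each on its brightest probe set. Stat3 and Socs3 were also more than 2-fold apart but did not pass the test, and Lif itself showed no difference beyond its spread.

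Of the 3 members that lay furthest apart on the log2 scale, Socs3 is a known STAT3 target, so the 250 bases before its RefSeq start (GRCm38.p6) are shown with those of Il6 and Osmr. Capitals mark the letters TTCNNNGAA, the palindrome bound by STAT dimers, which reads the same on both strands. The windows lie at chr11:117969367-117969616 (minus strand) for Socs3, at chr5:30012864-30013113 (plus strand) for Il6 and at chr15:6874314-6874563 (minus strand) for Osmr, each written 5′ to 3′ in the direction of its gene.
Socs3: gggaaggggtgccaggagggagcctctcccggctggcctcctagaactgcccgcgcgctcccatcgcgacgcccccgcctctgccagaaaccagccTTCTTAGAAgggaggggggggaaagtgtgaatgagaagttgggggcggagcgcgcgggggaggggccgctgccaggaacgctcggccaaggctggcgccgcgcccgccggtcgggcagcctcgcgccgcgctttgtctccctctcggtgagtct
Il6: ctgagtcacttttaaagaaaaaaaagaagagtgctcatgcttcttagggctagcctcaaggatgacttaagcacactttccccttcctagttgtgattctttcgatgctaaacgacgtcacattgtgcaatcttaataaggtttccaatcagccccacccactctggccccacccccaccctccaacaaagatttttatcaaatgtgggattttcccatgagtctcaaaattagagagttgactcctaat
Osmr: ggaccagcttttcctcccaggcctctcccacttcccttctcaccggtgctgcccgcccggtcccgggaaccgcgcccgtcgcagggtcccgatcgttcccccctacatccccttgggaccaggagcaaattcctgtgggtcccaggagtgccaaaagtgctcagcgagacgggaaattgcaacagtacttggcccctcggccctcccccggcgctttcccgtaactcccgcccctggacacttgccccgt
The Socs3 window holds the letters once, as TTCTTAGAA, between 154 and 146 bases before the start. They are not in the windows of Il6 and Osmr. Over the whole windows of the RefSeq table, which run on for another 50 bases past the start, 1 of 12 member promoters held a match (8.33%), as did 2726 of 32851 promoters in all (8.30%). The share among the members was thus that of promoters in general, and a match is a run of letters and not a shown binding site.

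The signals are MAS5 intensities brought to a common 75th percentile, a scaled signal of 280.9, with values under 12.3 raised to that floor. Each gene was read from its brightest probe set, and 12849 genes were compared with limma, with p adjusted over all of them (Benjamini and Hochberg). Because limma draws the variance of each gene towards that of genes of like signal, its standard errors do not follow from the printed SDs alone. An exact permutation of 2 against 2 arrays cannot give a p below 0.333, so none is given. The arrays measure mixtures of cells, in which fewer cells of a type and less RNA per cell cannot be told apart.

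Il6, the gene of the cytokine IL6, had scaled signals of 164 and 519 in KSP-positive replicates 1 and 2, against 57.1 and 20.8 in KSP-negative replicates 1 and 2. Both KSP-positive arrays lay above both KSP-negative arrays, although the replicates of each fraction also lay far apart. Its log2 signal was 8.19 ± 1.18 in KSP-positive cells and 5.11 ± 1.03 in KSP-negative cells (SD, n = 2 each), a difference of 3.08 (standard error 0.63, limma adjusted p = 0.0266). The filter on dim probe sets took the mean of all 4 arrays. The KSP-negative mean alone lay under its cut of 5.14, so Il6 entered the test through its KSP-positive signal. The size of the difference moved with each array left out, to 3.91 and 2.25 without KSP-positive replicates 1 and 2, and to 3.81 and 2.35 without KSP-negative replicates 1 and 2. In the last of these the gene did not pass (adjusted p = 0.148), nor did it with no filter on dim probe sets (adjusted p = 0.394).

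Lif, the gene of the cytokine that keeps mouse ES cells undifferentiated, had scaled signals of 85.5 and 58.8 in the KSP-positive replicates, against 102 and 64.4 in the KSP-negative replicates. The fractions overlapped. The log2 difference was -0.20, with a 95% confidence interval of -1.25 to 0.86 (adjusted p = 0.883 from limma), so a change of 2-fold downwards lies within the interval. The second probe set of Lif, 1450160_at, was at the floor in all 4 arrays and shows nothing on either fraction.

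Of the receptor chains, Osmr was the one that passed. Its scaled signals were 1000 and 1080 in the KSP-positive replicates, against 414 and 197 in the KSP-negative replicates. The KSP-positive values lay close together and the KSP-negative values apart, without overlap. The log2 signal was 10.03 ± 0.08 in KSP-positive cells and 8.16 ± 0.76 in KSP-negative cells (SD, n = 2 each), a difference of 1.87 (standard error 0.41, limma adjusted p = 0.0346). When KSP-negative replicate 2 was left out, Osmr differed by 1.33 (adjusted p = 0.178). It was 1.78 with the deposited values unscaled (adjusted p = 0.0545) and 1.87 without the intensity trend (adjusted p = 0.0673).

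Lifr, the receptor that binds LIF, had scaled signals of 2660 and 1900 in the KSP-positive replicates, against 1750 and 1240 in the KSP-negative replicates. The fractions did not overlap, but the nearest arrays, at 1900 and 1750, were close. The log2 difference was 0.61, with a 95% confidence interval of -0.17 to 1.39 (adjusted p = 0.409 from limma). Il6st, the gp130 gene, had scaled signals of 1230 and 1130 in KSP-positive cells, against 1100 and 698 in KSP-negative cells. Its difference of 0.42 (95% confidence interval -0.37 to 1.22, adjusted p = 0.592) was smaller than the SD of 0.47 between the KSP-negative replicates. Il6ra, the IL6-binding chain, was dim, at 60.7 and 68.1 in KSP-positive cells, against 44.5 and 49.9 in KSP-negative cells. Its fractions did not overlap, with a difference of 0.45 and an interval from -0.62 to 1.51 (adjusted p = 0.692).

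Stat3, the transcription factor downstream of gp130, had scaled signals of 1070 and 1220 in the KSP-positive replicates, against 658 and 462 in the KSP-negative replicates. Both KSP-positive arrays lay above both KSP-negative arrays, 2.07-fold apart (log2 difference 1.05 with a standard error of 0.35, limma adjusted p = 0.141). Jak1, the kinase bound to the receptor chains, had 503 and 516 in KSP-positive cells, against 395 and 185 in KSP-negative cells. Its log2 difference was 0.91 (95% confidence interval -0.01 to 1.84, adjusted p = 0.285), and 0.37 without KSP-negative replicate 2. Without KSP-negative replicate 1 the difference of Jak1 was 1.46.

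Socs3, the feedback inhibitor of gp130, had scaled signals of 2840 and 3300 in the KSP-positive replicates, against 1030 and 1700 in the KSP-negative replicates. The fractions did not overlap. The log2 signal was 11.58 ± 0.15 in KSP-positive cells and 10.37 ± 0.51 in KSP-negative cells (SD, n = 2 each), a 2.31-fold difference (1.21 on the log2 scale, standard error 0.36, limma adjusted p = 0.0992). With the replicate number as a block Socs3 passed (adjusted p = 0.0348). Its brightest probe set, 1455899_x_at, carries the suffix that Affymetrix gives where probes may bind other transcripts, and its probe set without that suffix, 1416576_at, had a difference of 1.43.

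**Figure D1:**
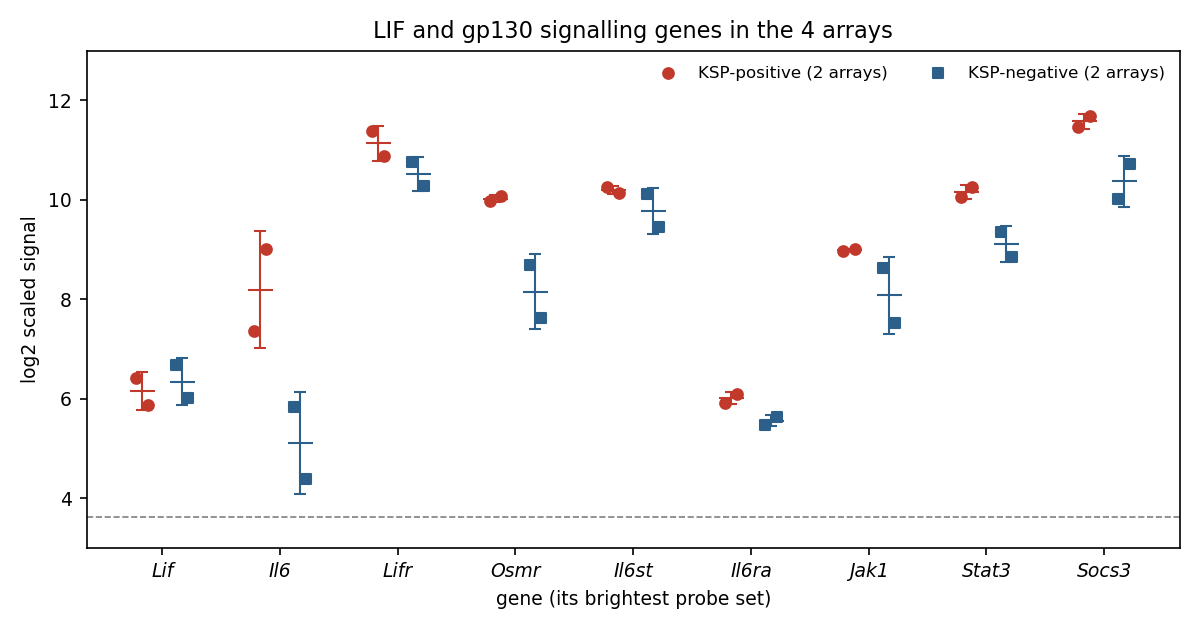
The brightest probe set of each of 9 genes (horizontal axis) is plotted as its log2 scaled signal (vertical axis). Circles are KSP-positive arrays and squares KSP-negative arrays, bars are means, whiskers show 1 SD (n = 2 arrays), and the dashed line is the floor. For each gene but Lif both circles lie above both squares, with the widest gap in means for Il6 (8.19 in KSP-positive cells and 5.11 in KSP-negative cells). Levels of different genes are not compared.

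Of the 9 members tested, 2 rose, where 1.84% of all genes rose, and 0 fell, where 1.65% of all genes fell (at an unadjusted p under 0.05, 4 members were higher and 0 lower, against 9.05% and 8.72% of all genes). More than 2-fold higher were 4 members (Il6, Osmr, Socs3 and Stat3), against 7.92% of all genes, and 0 were more than 2-fold lower, against 7.66%. The fractions did not overlap for 8 of the 9, all of them higher in KSP-positive cells, where 48.9% of all genes showed no overlap in one direction or the other. The median log2 difference was 0.91 over the members and -0.03 over all genes. Without KSP-negative replicate 2 no member passed. That array held the lowest signal of 6 of the 9 members, and of 21.5% of all genes. KSP-negative replicate 1 held the lowest of 2 members, and of 27.9% of all genes. For the 8 members that were higher without overlap the lowest signal had to lie in a KSP-negative array. The share over all genes is therefore not a like measure. Its actin control probe sets gave a 3′ over 5′ ratio of 3.55, a measure that is higher for shortened RNA, against 1.79 in KSP-negative replicate 1, 2.92 in KSP-positive replicate 1 and 1.80 in KSP-positive replicate 2. The part of RNA length in these differences was not tested.

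The 25 probe sets of the 9 genes did not move alike. Of these, 19 passed the filter on dim probe sets and 6 did not. Fitted each on its own among 27022 probe sets, 0 of the 19 had a limma adjusted p under 0.05 in either direction, where 0.307% of all probe sets were called higher and 0.296% lower. The lowest were Il6 (adjusted p = 0.0959) and Osmr 1418674_at (adjusted p = 0.104). In this fit a replicate block brought both past the threshold (limma adjusted p = 0.0107 for Il6 and 0.00844 for Osmr). Il6 also passed with the values as deposited (0.0187). Under most alternatives neither passed, among them no filter (limma adjusted p = 0.534 for Il6 and 0.475 for Osmr) and quantile normalization (0.11 and 0.112). At an unadjusted p under 0.05, 8 of the 19 were higher and 0 lower, against 6.70% and 6.41% of all probe sets. They were the 3 of Socs3, 2 of Stat3, and 1 each of Il6, Osmr and Jak1. The fractions did not overlap for 13 of the 19, each higher in KSP-positive cells, where 44.1% of all probe sets showed no overlap. The methods' t-test called none of them at a p under 0.05 before adjustment.

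All 3 probe sets of Socs3 passed the filter, and their differences lay close together. Besides the brightest, 1456212_x_at had scaled signals of 1380 and 1700 in KSP-positive cells, against 512 and 758 in KSP-negative cells, and 1416576_at had 272 and 517, against 154 and 126. The 3 differences were 1.21, 1.29 and 1.43, each without overlap. With the replicate number as a block, 1456212_x_at and 1416576_at passed (adjusted p = 0.0288 and 0.0426).

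The 4 probe sets of Stat3 differed. The probe set 1459961_a_at had 658 and 234 in KSP-positive cells, against 222 and 115 in KSP-negative cells, a log2 difference of 1.29. The probe set 1426587_a_at had 513 and 453, against 753 and 169, so that its highest and its lowest signal were both in KSP-negative cells. The dimmer 1424272_at had 96.9 and 40.3, against 57.7 and 62.6, with a difference of 0.06. Thus 2 of the 4 separated the fractions. The suffix of the first and second of these marks probe sets that several transcripts of the gene share.

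For Jak1, 1433803_at had scaled signals of 300 and 415 in KSP-positive cells, against 219 and 165 in KSP-negative cells, and its difference of 0.89 was close to the 0.91 of the brightest. The dim 1433804_at overlapped, at 90.5 and 36.8 in KSP-positive cells, against 80.6 and 58.0 in KSP-negative cells. Of the other Il6st probe sets, 1437303_at had 501 and 282, against 254 and 169, a difference of 0.86 without overlap (adjusted p = 0.451), and 1460295_s_at overlapped, at 54.8 and 54.6, against 94.2 and 35.0. The remaining 1421239_at ran the other way, with both KSP-positive arrays at the floor, against 12.5 and 31.0 in the KSP-negative arrays, and lay under the filter. For Lifr, the dim 1425107_a_at overlapped, at 59.0 and 89.7, against 90.1 and 43.5. The other probe sets of Osmr lay under the filter. There, 1459217_at had 45.3 and 26.6 in KSP-positive cells, against 16.4 and a value at the floor in KSP-negative cells, and 1418675_at had an array at the floor in each fraction. Also under the filter, Lifr 1450207_at had 43.4 and 43.0, against 36.8 and a value at the floor, and Il6ra 1452416_at had 121 and 14.7, against 49.0 and 17.5. Where a gene had several probe sets, the brightest thus separated the fractions for each gene but Lif. Other probe sets overlapped for Lifr, Osmr, Il6st, Il6ra, Jak1 and Stat3, but overlap did not follow dimness throughout. For Stat3, 1426587_a_at overlapped although it was brighter than 1459961_a_at, which did not. The dim Lifr 1450207_at and Osmr 1459217_at did not overlap either, nor did Il6st 1421239_at, which ran the other way.

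**Figure D2:**
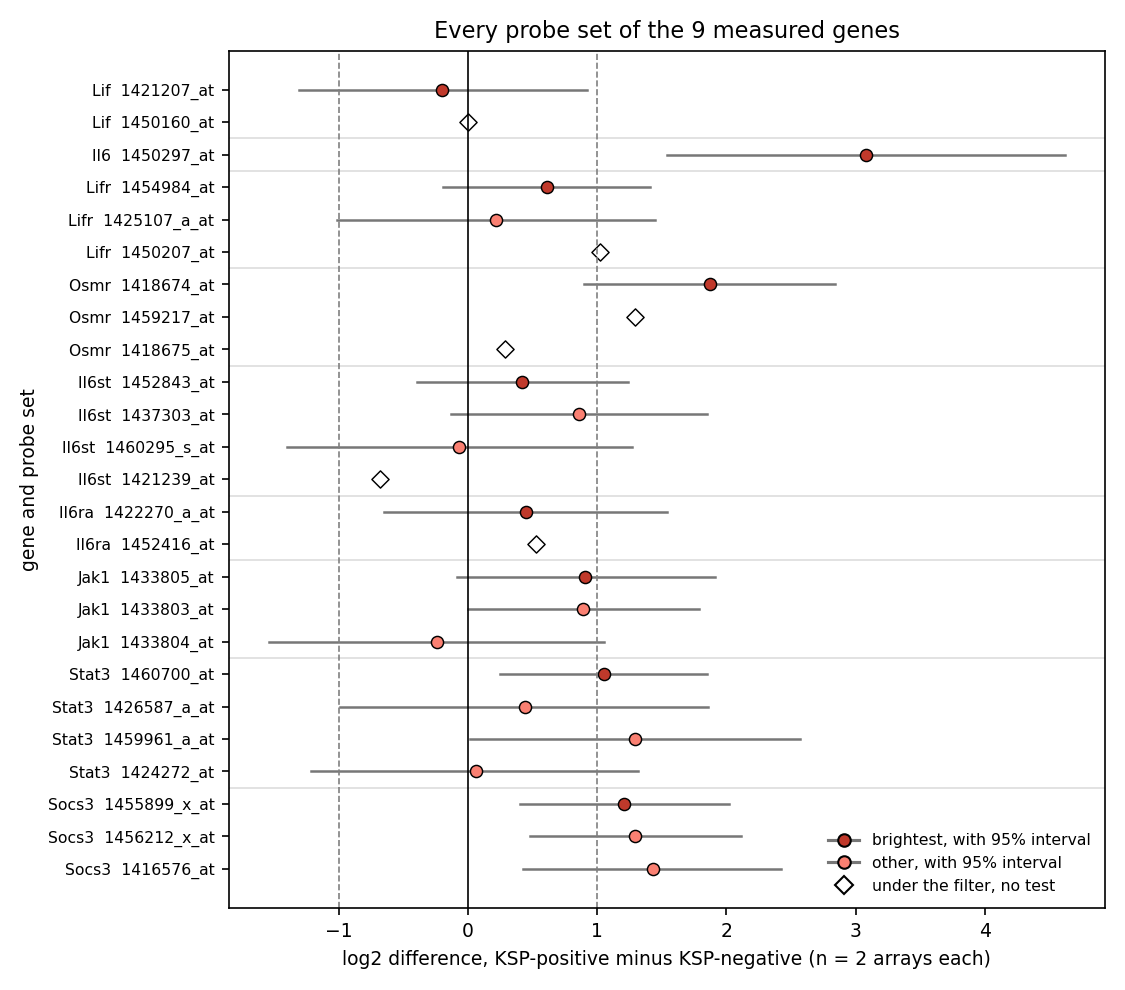
For 25 probe sets of 9 genes (vertical axis) the horizontal axis gives the log2 difference, KSP-positive minus KSP-negative (n = 2 arrays each), with dashed lines at 2-fold. Filled circles have 95% confidence intervals from the fit of every probe set (dark for the brightest of a gene), and open diamonds lay under the filter. The 3 probe sets of Socs3 lie at 1.21 to 1.43, while those of Stat3 spread from 0.06 to 1.29.

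Other genes of the pathway mostly did not pass the test. Of 61 listed genes, 6 were not matched to a probe set, 8 lay under the filter and 47 were tested, of which 1 (Cebpd) rose, 1 (Tfcp2l1) fell and 45 did not pass, shares close to the 1.84% and 1.65% of all genes that rose and fell. More than 2-fold higher were 5 of the 47 and more than 2-fold lower 2, against 7.92% and 7.66% of all genes, and the median log2 difference was 0.16. Both genes that passed were STAT3 targets.

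Of the other gp130 ligands and receptors, 5 of 13 were tested and 0 passed in limma (0 also at an unadjusted p under 0.05), with a median of -0.07. Ebi3, a subunit of IL27, had scaled signals of 99.8 and 56.7 in KSP-positive cells, against 18.2 and 51.1 in KSP-negative cells (log2 difference 1.30, adjusted p = 0.303). Osm, the gene of oncostatin M, the ligand of the Osmr chain, overlapped, with 104 and 60.1, against 52.7 and 63.4 (adjusted p = 0.693). Ctf1, the gene of cardiotrophin, had a difference of -0.56 (adjusted p = 0.536), and Clcf1 and Cntfr, the genes of another ligand and of a chain it uses, had -0.10 and -0.07. Il11, a further ligand, lay under the filter at 23.9 and 29.3, against 31.0 and 47.1.

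Of the other JAKs, STATs and adaptors, 11 of 14 were tested and 0 passed (0 also at an unadjusted p under 0.05), with a median of 0.10. The kinase gene Jak2 had 845 and 839 in KSP-positive cells, against 624 and 509 in KSP-negative cells, without overlap (log2 difference 0.58, adjusted p = 0.415). The adaptor gene Gab1 had a difference of -0.37, the STAT gene Stat5a 0.64 and Stat6 0.33. Stat4 lay under the filter, with both KSP-positive arrays at the floor, against 33.2 and 45.6. Of the other inhibitors, 13 of 14 were tested and 0 passed (1, Socs7, at an unadjusted p under 0.05), with a median of 0.05. Socs7 had 1830 and 1250, against 2800 and 2370 (log2 difference -0.77, adjusted p = 0.275), Socs6 a difference of 0.61, Socs2 one of -0.67 and Pias1 one of 0.58. Socs3 thus lay at 1.21 while the other tested inhibitors lay between -0.77 and 0.61, a difference between genes that was not tested.

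Known targets of STAT3 went both ways, and the list was written with earlier results of these data known. Cebpd, a transcription factor of the acute phase response, had scaled signals of 582 and 785 in KSP-positive cells, against 262 and 159 in KSP-negative cells (log2 difference 1.73, adjusted p = 0.0386 from limma). It lost the call without KSP-positive replicate 2 (1.52, adjusted p = 0.0806), without KSP-negative replicate 2 (1.37, adjusted p = 0.204) and unscaled (1.64, adjusted p = 0.0843), and its probe sets averaged to a difference of 0.92. Tfcp2l1, through which LIF sustains ES cell self-renewal, had 45.5 and 58.2 in KSP-positive cells, against 610 and 464 in KSP-negative cells. It was 10.3-fold lower (log2 difference -3.37, adjusted p = 0.00236), with no overlap.

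Of the 18 targets tested, 16 did not pass. At an unadjusted p under 0.05 in limma, Cebpd, Myc, Bcl3, Icam1, Timp1 and Junb were higher, and Tfcp2l1 and Ccnd1 lower. Over all genes, 9.05% were higher and 8.72% lower at that p. Bcl3, a co-activator of NF-κB, had 144 and 156 in KSP-positive cells, against 69.1 and 47.1 in KSP-negative cells (log2 difference 1.39, adjusted p = 0.120). Myc had 1150 and 964, against 551 and 354 (log2 difference 1.26, adjusted p = 0.0952). Klf4, a pluripotency factor that is also made in many differentiated cells, had 6570 and 6980, against 4970 and 5710 (log2 difference 0.35, adjusted p = 0.611), and its relative Klf5 had a difference of -0.71 (adjusted p = 0.296). Icam1, an adhesion molecule of inflamed tissue, had a difference of 0.93, the inhibitor of matrix proteases Timp1 one of 1.10, and the cyclin gene Ccnd1 one of -1.14. Pramel7 and Gbx2, targets known from ES cells, lay under the filter, with both KSP-positive arrays at the floor. In the KSP-negative replicates Pramel7 had 21.4 and 17.8, near the floor. Gbx2 was also at the floor in KSP-negative replicate 1, against 44.1 in replicate 2, so its fractions overlapped. The median over the list was 0.39, and the fractions did not overlap for 14 of the 18, against 48.9% of all genes.

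**Figure D3:**
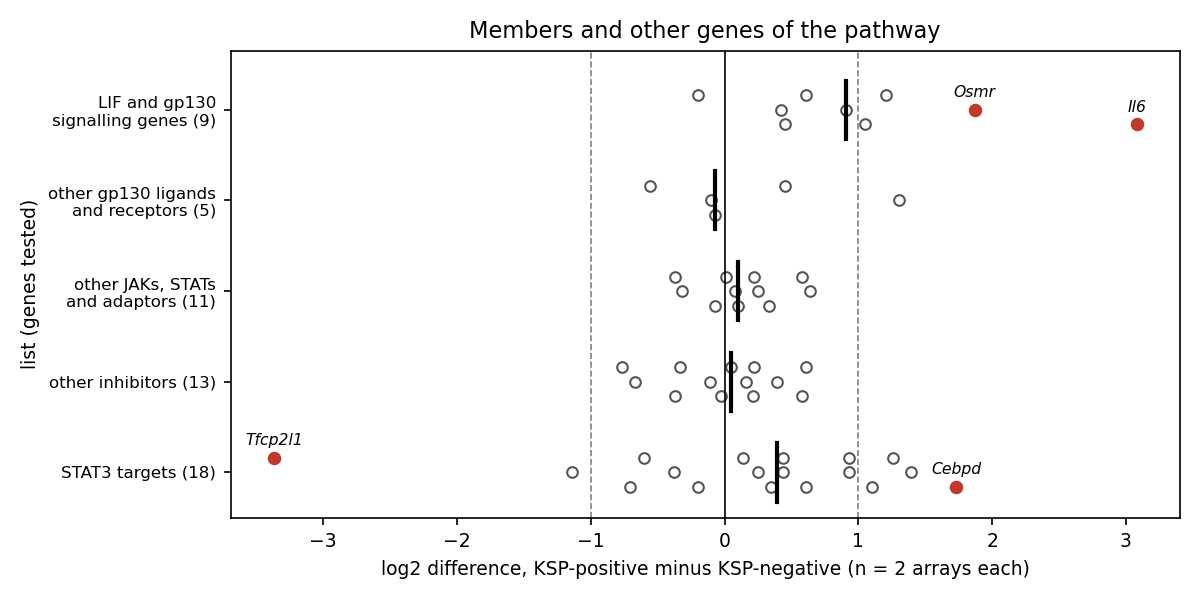
Each point is a tested gene of the members or of 4 lists of other pathway genes (vertical axis, with the number tested), placed by its log2 difference, KSP-positive minus KSP-negative (horizontal axis, n = 2 arrays each). Red marks a limma adjusted p under 0.05, a black bar the median, and the dashed lines 2-fold. Members have a median of 0.91, against 0.39 for STAT3 targets and 0.05 for other inhibitors.

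Markers of other cell types moved with the fractions in the same arrays. Cdh16, the gene of KSP, had 50.5 and 32.6 in KSP-positive cells, against 39.3 and 26.3 in KSP-negative cells, and overlapped (adjusted p = 0.816). Of the other 12 kidney epithelium markers listed, Umod and Slc12a3 were at the floor in every array, and Lhx1, a factor of the early nephron, fell (log2 difference -2.29), while Lrp2 and Aqp1, of the proximal tubule, did not pass. Of 14 macrophage markers tested, 13 rose (among them C1qa, Lyz2 and Ctss), with a summed scaled signal of 12700 to 26000 in KSP-positive cells and 1810 to 2270 in KSP-negative cells. C1qa and Aif1 were at the floor in both KSP-negative arrays. Of 13 mesenchymal markers tested, 6 rose (among them Col6a2, Col1a1 and Thy1), with sums of 64400 to 88200 in KSP-positive cells and 26100 to 40700 in KSP-negative cells. Of 13 markers of undifferentiated ES cells 12 fell (among them Fbxo15, Dppa5a and Fgf4), with sums of 2150 to 2860 in KSP-positive cells and 13600 to 26500 in KSP-negative cells, and Nanog and Fgf4 each had a KSP-positive array at the floor. Of 9 epithelial markers 5 fell (among them Cldn7, Cldn6 and Epcam), with sums of 8290 to 10500 in KSP-positive cells and 22800 to 29100 in KSP-negative cells. Of 8 endothelial markers 0 passed in limma or reached an unadjusted p under 0.05 (smallest p for Tek, Pecam1 and Kdr).

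Within KSP-positive cells, Il6 was higher in replicate 2, at 519, than in replicate 1, at 164. Osmr, Il6ra, Jak1, Stat3 and Socs3 were also higher in replicate 2, and Lif, Lifr and Il6st were lower. The endothelial sum was also higher in replicate 2, at 4260, than in replicate 1, at 1530. So were the ES cell sum (2860, against 2150) and the epithelial sum (10500, against 8290). The macrophage sum ran the other way, at 12700 in replicate 2 and 26000 in replicate 1. So did the mesenchymal sum, at 64400 and 88200, and the kidney epithelium sum, at 450 and 713. Within KSP-negative cells, 7 of the 9 members were lower in replicate 2 than in replicate 1, and Socs3 and Il6ra were higher. In replicate 2 the mesenchymal sum (26100, against 40700 in replicate 1), the endothelial sum (1540, against 2690) and the macrophage sum (1810, against 2270) were also lower. So was the kidney epithelium sum (816, against 873). The ES cell sum (26500, against 13600) and the epithelial sum (29100, against 22800) were higher. The part of macrophages, mesenchymal cells, endothelial cells, epithelial cells and undifferentiated cells in the differences of the members was not tested.

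**Figure D4:**
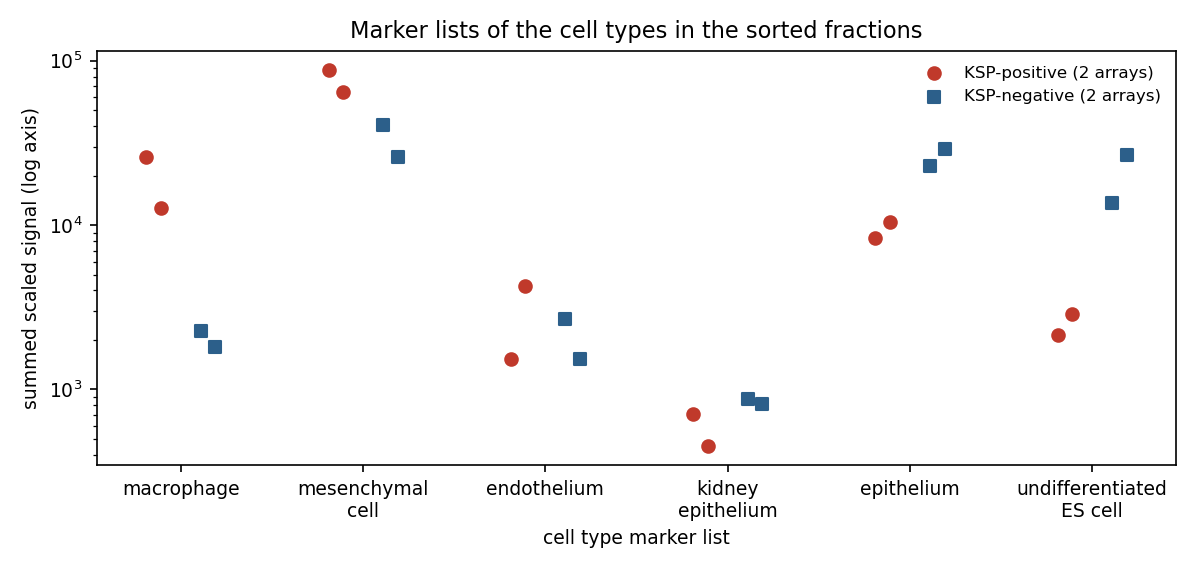
The markers of 6 cell types (horizontal axis) are summed as scaled signal in each array (vertical axis, log scale). Circles are KSP-positive arrays and squares KSP-negative arrays. Macrophage markers sum to 12700 and more in KSP-positive cells and to 2270 and less in KSP-negative cells, ES cell markers lie the other way round, and endothelial sums overlap.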

How the data were processed

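Total RNA of 2 KSP-positive and 2 KSP-negative samples was labelled with biotin after 2 cycles of cDNA synthesis and hybridized to Affymetrix mouse arrays. The deposited values are intensities on a linear scale, 1 per probe set, that the authors obtained with MAS5 (version and scaling not given in the sources used here). GeneSpring, named in the methods without a setting, was not repeated. Signals were multiplied by 0.874 to 1.24 to a common 75th percentile, floored at the 20th percentile of all values (16.8% to 22.9% of an array), and log2 values were taken. A probe set was kept if its mean log2 signal exceeded 5.14, the 40th percentile. The annotation gives 34945 probe sets 1 gene, 932 several and 9160 none. The brightest kept probe set assigned to 1 gene stood for it. Both fractions entered a limma fit (version 3.58.1, under R 4.3.3, empirical Bayes with an intensity trend, Benjamini-Hochberg), for 12849 genes and again for each of 27022 probe sets. The fit was tested on simulated data, and plots were made in matplotlib 3.10.9.

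Members and lists were chosen with earlier results of these data known. All members, pathway genes past the threshold and up to 4 per list with the smallest p were named. So were up to 3 markers per cell type. Others (Cntfr, Il11, Stat4, Umod, Slc12a3, Aif1, Nanog, Klf4, Klf5, Ccnd1, Junb, Pramel7 and Gbx2) were added after their values were seen. No source ties replicate numbers to experiments, so arrays were not paired. P-values measure only the spread between these arrays, and those of limma use the spread of other genes besides the gene's own. On its own spread, the methods' t-test gave an unadjusted p of 0.108 for Il6 and 0.074 for Osmr. The number of arrays limits the precision. Alternatives were other scalings, floors, filters, probe set summaries and tests, and each array left out, where the single array that remains is assumed to spread as the other pair does.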

Additional observations from a re-analysis of the deposited data

How the results depend on the processing

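With 2 arrays per fraction, few of the counts held under every alternative. The 2 members that rose became 1 with the values as deposited (Il6), 1 with a filter at the 60th percentile (Osmr, since Il6 then lay under it), 1 without the intensity trend (Il6), and 0 with no filter, with the methods' t-test at a p under 0.05 and with that test after Benjamini-Hochberg. Leaving out each array in turn gave 0 to 2. Over the other alternatives the count was 2, or 3 with the replicate number as a block (Il6, Osmr and Socs3). The 4 members over 2-fold became 3 with the values as deposited, with the 60th percentile filter and with the mean of probe sets. Over 3-fold there were 2, and no member was over 2-fold lower. Stat3 lay under 2-fold as deposited (log2 difference 0.96) and as the mean of its probe sets (0.71). It also did so when replicate 2 was dropped from KSP-positive cells (0.95) or from KSP-negative cells (0.8). Socs3 did so when replicate 1 was dropped from KSP-negative cells (0.85). Of the 19 probe sets, 0 were called higher, against 1 with the values as deposited, 5 with the replicate block and 0 to 2 without an array. Of the pathway genes, the 1 that rose became 0 with the values as deposited, with no filter, with the mean of probe sets and without the trend, 2 with the block, 2 with the methods' t-test and 0 after adjustment of that test, and 0 to 1 without an array. The 1 that fell became 0 with no filter and with the adjusted methods' t-test, 2 with the block, and 1 to 2 without an array. With no filter limma tested 18193 genes. Under the block the pairing rests on numbers alone: KSP-positive and KSP-negative replicate 1 deviated from their group means with a correlation of 0.306 across probe sets, and with 2 pairs this does not show that the numbers mark the experiments.

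Among the members, only log2 differences of overlapping probe sets changed sign. Where the fractions do not overlap, leaving out an array cannot change the sign, so those fits could not have shown a change. Leaving out each array in turn, Lif ran from -0.53 to 0.14, its probe set 1421207_at likewise, Lifr 1425107_a_at from -0.31 to 0.74, Il6st 1460295_s_at from -0.78 to 0.65, Stat3 1424272_at from -0.58 to 0.69, Stat3 1426587_a_at from -0.64 to 1.51 and Jak1 1433804_at from -0.89 to 0.40. Stat3 1424272_at was also at -0.03 with the values as deposited. The cause of the overlap was not tested.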
